A study of Homo sapiens with 30 samples.

Results

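Matrix metalloproteinases (MMPs) are zinc-dependent proteases that are made as inactive proenzymes and cut collagen, gelatin and other proteins of the extracellular matrix. Most are secreted, whereas the membrane-type enzymes stay on the cell surface, where MMP14 also activates the proenzyme of MMP2. They are known in breast cancer for matrix breakdown during invasion, and tissue inhibitors (TIMPs) hold them in check. Here 10 MMP genes were followed, of 20090 protein-coding genes in all: the collagenases MMP1 and MMP13, the stromelysins MMP3 and MMP10, the matrilysin MMP7, the gelatinases MMP2 and MMP9, and the membrane-type enzymes MMP14, MMP15 and MMP16. They were taken as a named list, and the rule for membership used no measured value. MMP7, MMP10, MMP1, MMP3 and MMP13 lie in that order in a cluster on chromosome 11, and the other 5 lie on chromosomes 8, 14, 16 and 20.

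The measurements were ChIP-seq peak summits from MDA-MB-231, an established triple-negative breast cancer cell line. Parental cells were profiled for SAP30, which belongs to the SIN3 corepressor complex, for its scaffolds SIN3A and SIN3B, for RNA polymerase II (Pol II), and for 2 histone marks: H3K4me3 typically sits at active promoters, and H3K9Ac at active promoters and enhancers. SAP30-KO1 cells, in which SAP30 was knocked out with CRISPR/Cas9, were profiled for Pol II, H3K4me3 and H3K9Ac, so SAP30 itself was not measured in the knockout. Per the study's methods that line is a mixture of several single-cell clones, and both lines received no other agent named in the labels. Each of the 9 groups had 2 libraries, and nothing in the labels says that these came from separate cultures, so p-values measure only the spread between these libraries.

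The 18 lists held 10861 to 54622 summits, from the shorter SIN3A list to the longest H3K9Ac list. The sequencing depth behind them is unknown, so a summit is described by its rank in its own list, where 0% is the best score and 100% the last. The markers of the mesenchymal state fixed for this line (VIM, CD44, AXL, SNAI2 and ZEB1) had promoter Pol II in all 4 libraries at 5 of 5 genes. Of 6 luminal markers, ESR1, PGR, GATA3 and CDH1 had none, whereas KRT8 and EPCAM had Pol II in all 4 libraries. Of all 20090 protein-coding genes, 10702 had promoter Pol II in all 4 libraries. On the long arm of chromosome 11, where the cluster lies, H3K9Ac regions found in all 4 libraries had worse ranks in SAP30-KO1 by a median of 6.05 percentage points, against 0.924 over all such regions. Those arm values stand beside the cluster results, and their part in them was not tested.

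Promoter sequences were matched for MMP7, MMP10, MMP14 and MMP15, 4 of 10 genes, in the RefSeq promoter table. They are shown because MMP7 and MMP10, without promoter summits, had lower GC contents and fewer CpG dinucleotides than MMP14 and MMP15, which had such summits. This describes these 4 genes only, since the other members were not matched. Each run holds the 100 bases before the start site on the gene's own strand, located in GRCh37 by sequence match, and capitals mark the letters TGANTCA (the form bound by AP-1 factors), TATAAA (the TATA box) or GGGCGG (the GC box, also marked where it reads CCGCCC on this strand). The first 2 genes are in the chromosome 11 cluster (chr11:102651360-102651459 and chr11:102401479-102401578, minus strand), and the last 2 are not (chr14:23305694-23305793 and chr16:58059558-58059657, plus strand).
MMP10: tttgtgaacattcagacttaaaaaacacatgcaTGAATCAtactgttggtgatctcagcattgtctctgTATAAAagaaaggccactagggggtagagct
MMP7: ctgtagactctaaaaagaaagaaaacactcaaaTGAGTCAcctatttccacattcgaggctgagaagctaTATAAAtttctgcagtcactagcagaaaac
MMP14: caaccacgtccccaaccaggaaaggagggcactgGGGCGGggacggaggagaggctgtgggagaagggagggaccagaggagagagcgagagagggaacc
MMP15: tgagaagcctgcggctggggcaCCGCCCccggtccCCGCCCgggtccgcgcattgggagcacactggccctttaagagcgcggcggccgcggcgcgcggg

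MMP10 and MMP7, which encode a stromelysin and the matrilysin, both held TGANTCA beginning 67 bases before the start and TATAAA beginning 31 and 30 bases before it. In windows from 250 bases before to 50 after the start, searched on both strands, TGANTCA stood in 7.76% and TATAAA in 12.0% of 27303 RefSeq promoters. MMP14 held 1 GGGCGG and MMP15 held 5, a motif found in 44.6% of promoters. AGGAAG, an ETS-type core found in 33.7% of promoters, was held by MMP7 alone of the 4, at 169 and 145 bases before its start. The window of MMP10 held 2 CpG dinucleotides and that of MMP7 held 4, against a median of 14 over all promoters, while MMP14 held 10 and MMP15 held 39. Their GC contents were 36.3%, 35.7%, 55% and 75.3%, in the same order, against a median of 58.3%. These matches are descriptions of the letters, and no factor that binds them was measured.

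A summit within 1000 bp of a start site, called a promoter summit here, was found in 36 of 180 pairs of gene and library (20%), against 58.1% over all protein-coding genes. All 36 belonged to MMP2, MMP14, MMP15 and MMP16: the cluster had 0 of 90 and the other 5 genes had 36 of 90 (40%). SAP30 and H3K4me3 lay at the promoters of MMP14, MMP15 and MMP16 in every library, whereas Pol II and SIN3B lay at that of MMP14 only, and no SIN3A summit lay at any of the 10 promoters. For comparison, the lists placed a summit at the promoters of 62.3% to 62.7% of all genes for SAP30, 37.7% to 38.6% for SIN3A, 53.9% to 55.1% for SIN3B, 58.4% to 59.4% for parental Pol II and 64.4% for parental H3K4me3. MMP1, MMP13, MMP3, MMP10, MMP7 and MMP9 had no promoter summit in any list, a state shared by 6466 of 20090 genes (32.2%).

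**Figure D1:**
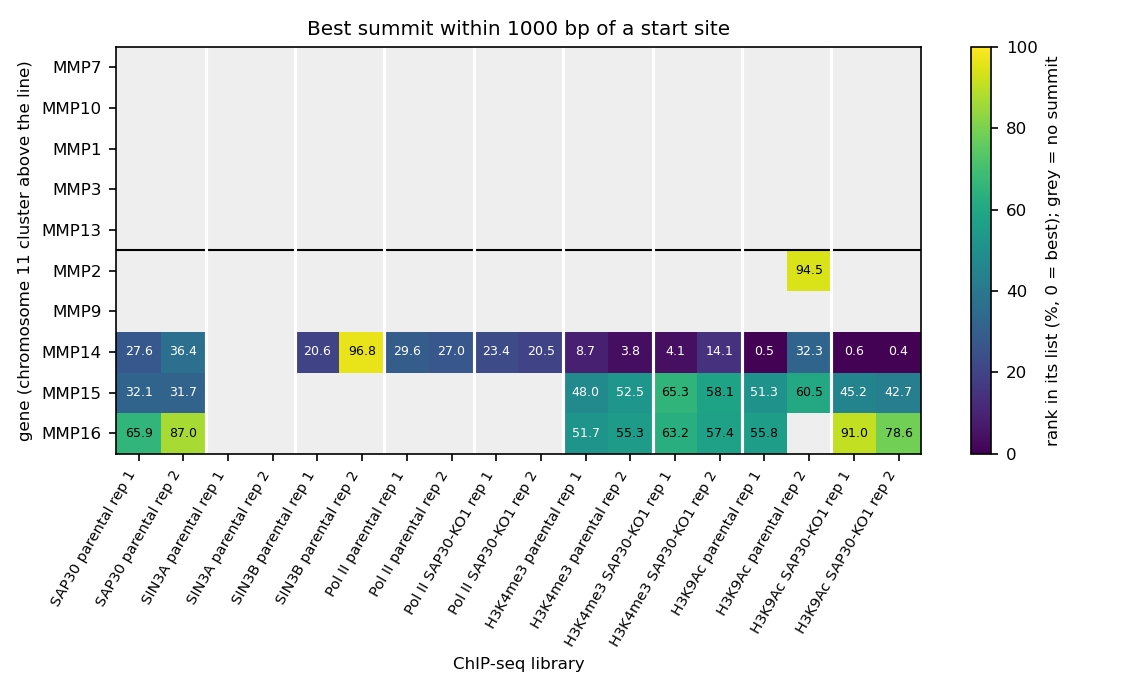
Rank, in its own list, of the best summit within 1000 bp of a start site, for 10 genes (rows) and 18 libraries (columns); colour and number give the rank in percent, 0 is best and grey means no summit. The 5 cluster genes above the line are grey throughout, and MMP14 is filled in 16 of 18 lists.

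The collagenases MMP1, which cuts fibrillar collagens, and MMP13, which prefers type II collagen, lie at chr11:102660132-102668891 and chr11:102813724-102826461 on the minus strand. The stromelysins MMP3 and MMP10, which cut proteoglycans and can activate other proenzymes, lie at chr11:102706532-102714340 and chr11:102641233-102651359. All 4 sat in a single stretch of 276 kb (chr11:102631319-102907099) without a summit of any target in any list, and 10.9% of protein-coding genes lay in a longer one. The median stretch over all genes was 1086 bp. MMP3 and MMP13 had no summit in the gene or within 50 kb in any of the 18 lists, as did 9.30% of genes. The nearest Pol II summits were 293472 to 293986 bp from the start of MMP1 and 135902 to 136416 bp from that of MMP13.

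The nearest summits to MMP10, MMP1 and MMP3 were of SAP30, whereas the nearest to MMP13 was a single H3K9Ac summit in parental replicate 1, 80638 bp from its start. Both SAP30 lists had a summit at chr11:102631257-102631319, in intergenic sequence 20.1 kb beyond the start of MMP10 in its direction of transcription and 37.6 kb from that of MMP1. The summits ranked 33.6% in replicate 1 and 41.6% in replicate 2, and none of the other 16 lists had a summit there. So this SAP30 region had no SIN3A, SIN3B, Pol II, H3K4me3 or H3K9Ac summit beside it. The 121 bases around it (chr11:102631228-102631348, plus strand of GRCh37) are shown because it was the only region near MMP1 and MMP10, with TGANTCA in capitals.
SAP30 region nearest MMP10: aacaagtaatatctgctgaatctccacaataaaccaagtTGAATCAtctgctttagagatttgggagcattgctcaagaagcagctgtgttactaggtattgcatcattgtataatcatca
It held 36.4% GC and no CpG, and 1 TGANTCA, which stood in 12.1% of the 24796 windows of this length at regions found in both SAP30 lists.

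MMP7, a small protease that lacks the hemopexin domain of most MMPs and is known from glandular epithelium, lies apart from the other 4 at chr11:102391239-102401481. It had 5 summits within 50 kb over all lists, none of them in the gene. Only 1 of its regions was found in more than 1 list, an H3K9Ac region at chr11:102347561-102347592, in an intron of a long noncoding RNA gene 53.9 kb downstream of the MMP7 start. Its ranks were 69.9% and 77.1% in parental cells, and it was absent from both SAP30-KO1 lists, whose nearest summits were 24326 and 24355 bp away. The single-list summits near MMP7 were a SAP30 summit of rank 67.1%, an H3K9Ac summit of rank 71.3% and an H3K4me3 summit of rank 95.9%, all in replicate 1 of parental cells.

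**Figure D2:**
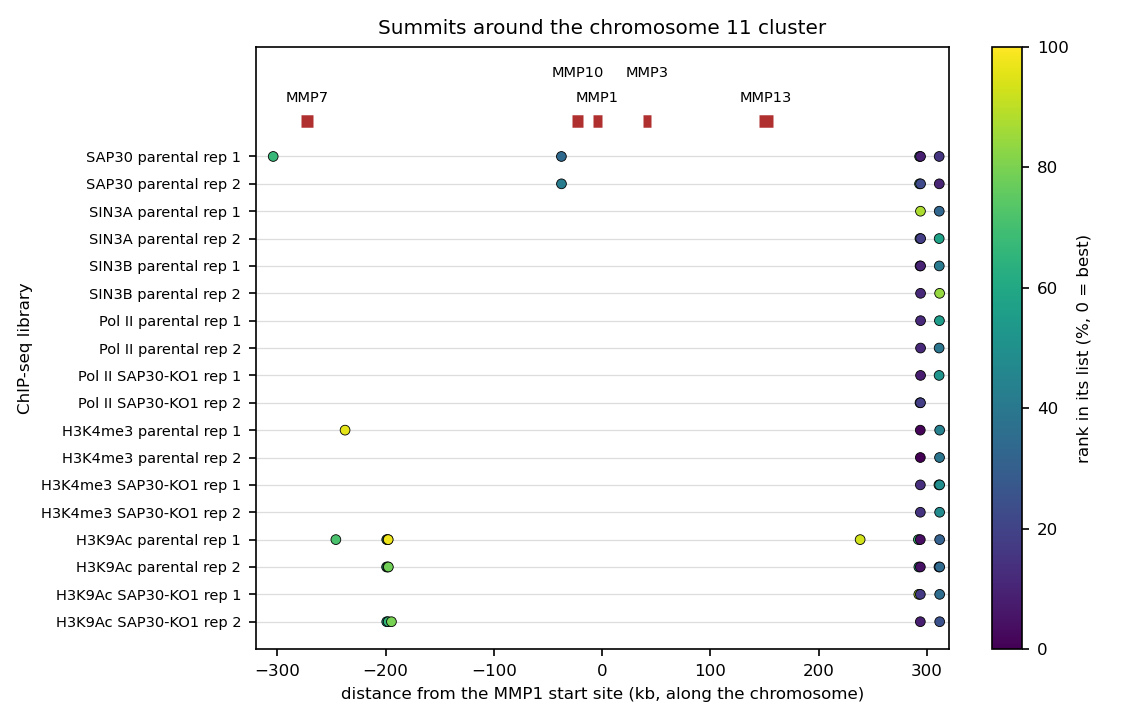
Summits of the 18 libraries (rows) along chromosome 11 by distance in kb from the MMP1 start site, coloured by rank in the list (0 is best), with the 5 genes as bars. The SAP30 pair 37.6 kb from the MMP1 start is the only mark near MMP10, MMP1, MMP3 and MMP13; the other summits on the map are nearer to MMP7 or lie beyond MMP13.

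The gelatinase MMP2, which cuts denatured collagen and type IV collagen and is made mainly by stromal cells, spans chr16:55423612-55540603 on the plus strand and has 4 annotated start sites. Its one promoter summit was an H3K9Ac summit of rank 94.5% in parental replicate 2, 304 bp before a start site. H3K9Ac was instead found in an intron of the longest transcript, at chr16:55504242-55505947 and 8.02 kb before the nearest start. There the best summits ranked 38.5% and 31.2% in parental cells and 87.8% and 79.8% in SAP30-KO1 cells. The groups did not overlap, and the rank was worse by 49.0 percentage points (parental 34.8% ± 5.20, SAP30-KO1 83.8% ± 5.65, SD, n = 2; exact permutation test, p = 0.333, the smallest that 2 libraries against 2 can give). Of 25658 H3K9Ac regions in all 4 libraries 0.0273% moved further down, and the change was the highest of 460 on the long arm of chromosome 16, where the median was 2.34. The region was singled out after its values were seen.

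A second H3K9Ac region in MMP2, at chr16:55537156-55537286 and 21.8 kb after the start, ranked 98.7% and 78.2% in parental cells and was absent in SAP30-KO1. SAP30 lay between them in an intron, 18713 and 18670 bp after the nearest start, with ranks of 70.7% and 51.5%. Beside it were a SIN3B summit of rank 58.7% in replicate 1 and an H3K9Ac summit of rank 99% in SAP30-KO1 replicate 1. Pol II and H3K4me3 near MMP2 were found only at the promoter of the neighbouring gene LPCAT2, 27.7 kb away, which had a region in 14 lists. The first of the 4 start sites lay in a stretch of 532 kb without a summit in any list, and 4.88% of genes lay in a longer one.

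The gelatinase MMP9 (chr20:44637547-44645200, plus strand), known from neutrophils and macrophages, had no promoter summit. A SAP30 summit of rank 77.1% lay in its gene body in replicate 1 alone. That position is annotated as an exon of the overlapping gene SLC12A5-AS1, so the summit cannot be assigned to MMP9 alone. In the intergenic sequence 15.3 kb upstream, SAP30 ranked 50.7% and 25% and H3K9Ac ranked 72.5% in parental replicate 1 only. The other regions within 50 kb that were in most lists belonged to the promoters of ZNF335, in 17 lists, and SLC12A5, in 9 lists.

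MMP14, the membrane-type enzyme MT1-MMP that cuts pericellular collagen and activates pro-MMP2, lies at chr14:23305769-23318250 on the plus strand and was the member with the fullest chromatin state. It had promoter summits in 16 of 18 lists, all but the SIN3A pair. Pol II, H3K4me3, H3K9Ac and SAP30 stood together in both parental replicates at 11084 genes (55.2%), and SAP30, SIN3B and Pol II without SIN3A at 1688 genes (8.40%), MMP14 being in both sets. The exact 18-list pattern was shared by 1473 other genes, of which PCGF3, SNX6 and HEXIM2 were nearest in rank, with mean absolute differences of 8.44, 8.46 and 9.40 percentage points over 16 lists.

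The best-ranked summits of the targets lay at different distances along the start of MMP14, though no fixed order held for every summit. Pol II summits were 5 to 103 bp past the start, in the 5' untranslated region. H3K4me3 summits followed at 333 to 378 bp, across the end of the first exon and the first intron. The best SAP30 summits were at 838 and 826 bp, in the first intron, with ranks of 27.6% and 36.4%. Replicate 2 also had SAP30 summits at 262 bp, in a coding exon (rank 59.4%), and at 2166 bp, in an intron (rank 49.3%). SIN3B ranked 20.6% at 770 bp in replicate 1 and 96.8% at 30 bp before the start in replicate 2, whose better SIN3B summit, of rank 37.8%, lay at 1167 bp and so outside the window. H3K9Ac peaked at 945 to 947 bp in 3 of 4 lists. The 121 bases around the best SAP30 summits (chr14:23306566-23306686, plus strand of GRCh37) are shown beside the cluster region printed above for contrast in composition.
SAP30 summits in the first intron of MMP14: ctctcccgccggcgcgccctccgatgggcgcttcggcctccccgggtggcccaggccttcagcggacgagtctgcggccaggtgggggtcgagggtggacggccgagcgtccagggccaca
This window held 76.9% GC and 15 CpG, and none of the 4 motifs searched.

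In SAP30-KO1 cells Pol II had better ranks at MMP14, without overlap with parental cells. The promoter summit ranked 29.6% and 27.0% in parental cells and 23.4% and 20.5% in SAP30-KO1 cells, so both knockout libraries ranked better than both parental libraries. The change was -6.32 percentage points (28.3% ± 1.87 to 22% ± 2.01, SD, n = 2; exact permutation test, p = 0.333), whereas the median over 10702 genes was 1.48 and 17.7% of them had a lower change. On the long arm of chromosome 14, which holds MMP14, the median over Pol II regions was -0.176. Ranked only among the genes with a Pol II summit in all 4 lists, the change at MMP14 was -13.4. A Pol II region 1.82 kb into the gene, at chr14:23307028-23308206 in an intron, ranked 82.1% and 86.2% in parental cells and 72.3% and 43.9% in SAP30-KO1 cells, a change of -26.0 percentage points without overlap.

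For the histone marks at the MMP14 promoter the 2 lines overlapped. H3K4me3 ranked 8.74% and 3.78% in parental cells and 4.11% and 14.1% in SAP30-KO1 cells, a change of 2.83 percentage points (exact permutation test, p = 0.667, n = 2) that was -2.15 without SAP30-KO1 replicate 2. H3K9Ac ranked 0.471% and 32.3% in parental cells and 0.637% and 0.419% in SAP30-KO1 cells. The difference of -15.8 rests on parental replicate 2, whose summit of rank 1.25% lay 1145 bp past the start, just outside the window. With a window of 3000 bp the change was -0.332, and without that replicate 0.0567. H3K9Ac in the first intron of MMP14 was therefore among the best 2% of summits in all 4 lists.

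Downstream of MMP14 an H3K9Ac region in intergenic sequence 16.8 kb from the start (chr14:23322606-23322634) ranked 15.9% and 12.8% in parental cells and was absent from both SAP30-KO1 lists, whose nearest summits were 2157 and 2216 bp away. Those nearest summits ranked 18.7% and 17.2%, and parental replicate 2 had one at about the same place, of rank 20.4%, where replicate 1 had none. Well-ranked H3K9Ac thus stood beside the lost summit in both SAP30-KO1 libraries. Of 1551 H3K9Ac regions lost genome-wide, 19 had a mean parental rank under 20%. H3K4me3 at the same place ranked 60.8% and 64.8% in parental cells and 78.0% and 79.1% in SAP30-KO1 cells, a change of 15.8 percentage points with no overlap (exact permutation test, p = 0.333, n = 2). SAP30 was there in parental cells at 66.8% and 65.7%. The loss depends on how summits are joined: with summits joined within 3000 bp both SAP30-KO1 libraries had a summit of the region, and with 500, 1000 or 2000 bp neither did. The sequence (chr14:23322560-23322680, plus strand of GRCh37) is shown because this was the best-ranked lost region near any of the 10 genes, a choice made after its values were seen.
H3K9Ac region downstream of MMP14: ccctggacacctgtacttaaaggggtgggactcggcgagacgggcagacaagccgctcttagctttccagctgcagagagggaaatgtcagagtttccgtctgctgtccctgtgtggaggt
It held 57.9% GC and 5 CpG, and none of the 4 motifs.

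**Figure D3:**
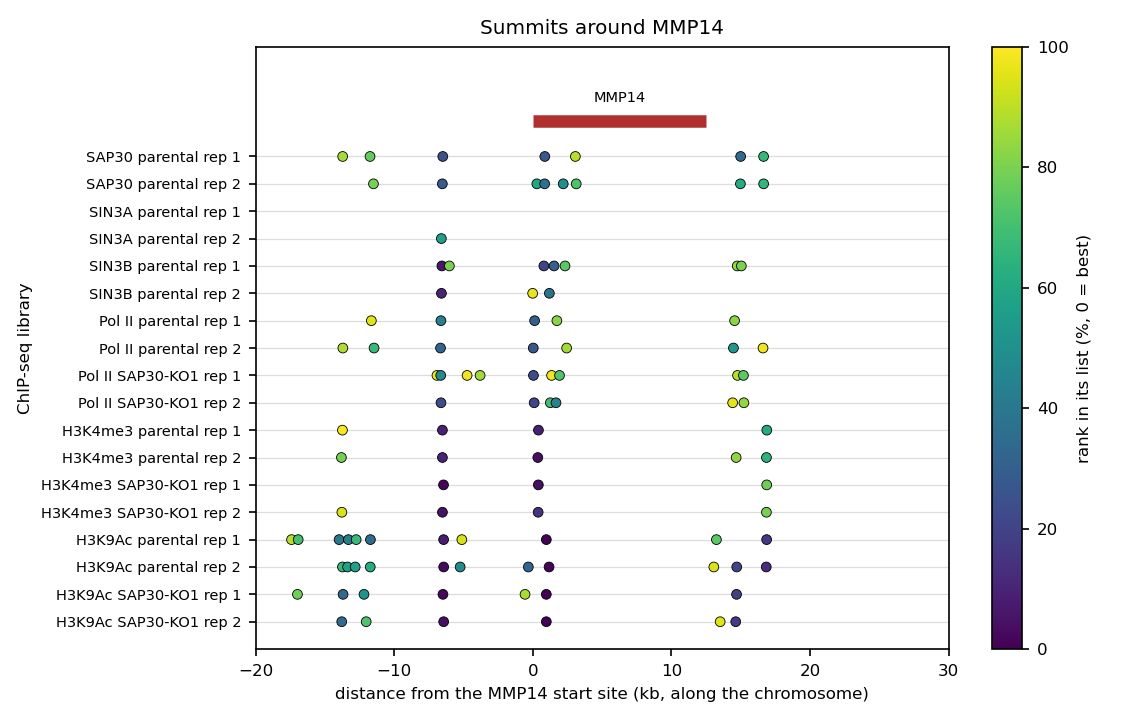
Summits of the 18 libraries (rows) by distance in kb from the MMP14 start site along the chromosome, coloured by rank in the list (0 is best), with the gene as a bar. H3K9Ac summits 16.8 kb downstream are present in both parental lists and in neither SAP30-KO1 list, while the promoter summits of Pol II, H3K4me3 and H3K9Ac are present in all 4.

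The membrane-type enzymes MMP15 (MT2-MMP, chr16:58059658-58080805, plus strand) and MMP16 (MT3-MMP, chr8:89044239-89340254, minus strand) had SAP30 and H3K4me3 at the promoter without Pol II. That parental state was found at 531 genes (2.64%), and at 362 genes (1.80%) SIN3A and SIN3B were absent as well, as they were at both members. At MMP15 SAP30 ranked 32.1% and 31.7%, 74 and 160 bp past the start in the 5' untranslated region. At MMP16 SAP30 ranked 65.9% and 87.0%, 11 bp before and 28 bp after the start. The region at the MMP16 promoter was also annotated as the promoter of a second gene, so its summits cannot be assigned to MMP16 alone. The exact 18-list pattern was shared by 132 other genes for MMP15 and by 15 for MMP16.

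H3K4me3 had worse ranks at both genes in SAP30-KO1, by 11.4 and 6.78 percentage points. At MMP15 it ranked 48.0% and 52.5% in parental cells and 65.3% and 58.1% in SAP30-KO1 cells, and the groups did not overlap (50.2% ± 3.24 to 61.7% ± 5.09, SD, n = 2; exact permutation test, p = 0.333). At MMP16 it ranked 51.7% and 55.3% in parental cells and 63.2% and 57.4% in SAP30-KO1 cells, and again the groups did not overlap (53.5% ± 2.57 to 60.3% ± 4.04, SD, n = 2; exact permutation test, p = 0.333). The median change over 12527 genes was 2.09. Ranked only among the genes with a summit in all 4 lists, the changes were 4.53 for MMP15 and 1.32 for MMP16, and without SAP30-KO1 replicate 1 that of MMP16 was 3.92. On the long arm of chromosome 16, where MMP15 lies, H3K4me3 regions had a median change of 6.15 percentage points and 46.2% were worse without overlap, and the part of this in the MMP15 result was not tested.

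H3K9Ac had better ranks at MMP15 in SAP30-KO1, and the MMP16 promoter lacked a summit in 1 library. At MMP15 it ranked 51.3% and 60.5% in parental cells and 45.2% and 42.7% in SAP30-KO1 cells, a change of -11.9 percentage points (55.9% ± 6.51 to 43.9% ± 1.72, SD, n = 2; exact permutation test, p = 0.333) against a median of 0.310 over 12044 genes. Only 2.16% of those genes had a lower change. Ranked among the genes alone the change was -2.34, and without parental replicate 2 it was -7.33. At MMP16 H3K9Ac ranked 55.8% in parental replicate 1, had no promoter summit in parental replicate 2, and ranked 91.0% and 78.6% in SAP30-KO1 cells.

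Away from these promoters regions differed in both directions. At ZNF319, 29.6 kb upstream of MMP15, H3K9Ac ranked 66.8% and 72.9% in parental cells and 58.2% and 33.1% in SAP30-KO1 cells, better by 24.2 percentage points (a change of -24.2) without overlap. In the promoter of USB1 and ZNF319, found in 18 lists, the Pol II and H3K4me3 ranks of the 2 lines overlapped, as did those of its better-ranked H3K9Ac summits. A second H3K9Ac region there, at the USB1 promoter, ranked 47.4% and 56.5% in parental cells and 75.2% and 58.1% in SAP30-KO1 cells. Its rank was worse by 14.7 percentage points without overlap. In an intron of USB1, 20.9 kb upstream of MMP15, H3K9Ac ranked 51.4% and 36.8% in parental cells and 62.7% and 53.1% in SAP30-KO1 cells, worse by 13.8 percentage points without overlap. In an intron of TEPP, 40.5 kb upstream of MMP15, H3K4me3 ranked 52.8% and 56.9% in parental cells and 79.3% and 88.6% in SAP30-KO1 cells, a change of 29.1 percentage points that 0.112% of H3K4me3 regions exceeded. H3K9Ac at that place ranked 71.9% and 84.6% in parental cells and was absent in SAP30-KO1. In an intron of MMP16, 29.2 kb after the start, H3K9Ac ranked 68.3% and 45.1% in parental cells and 87.8% and 86.2% in SAP30-KO1 cells, a change of 30.3 percentage points that 1.27% of H3K9Ac regions exceeded. A second intronic H3K9Ac region, 57.9 kb after the MMP16 start, ranked 79.3% and 59.0% in parental cells and was absent in SAP30-KO1. The TEPP and ZNF319 regions too were picked out after their values were seen. Pol II appeared once near MMP16, in SAP30-KO1 replicate 1, in the gene 142783 bp from the start.

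**Figure D4:**
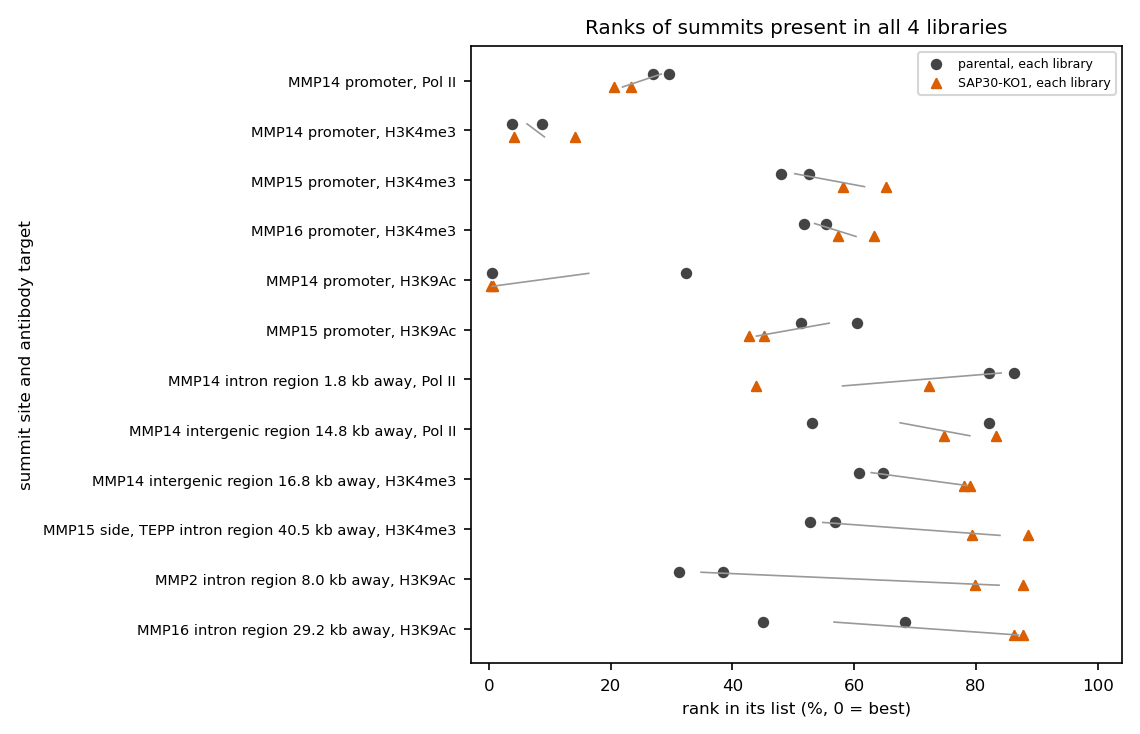
Rank in its list (0 is best) of summits found in all 4 libraries of a target, at the promoters of the members and at regions in or near them, with parental libraries as circles, SAP30-KO1 libraries as triangles and a line joining the group means. The H3K9Ac region in MMP2 shows the widest gap, 34.8% against 83.8%, and the promoter values of MMP14 for H3K4me3 and H3K9Ac overlap.

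Counted over the 10 genes, no promoter summit was lost, meaning present in both parental and neither SAP30-KO1 library, and none was gained. The genes with a summit to lose were MMP14 for Pol II, 3 genes for H3K4me3, and MMP14 and MMP15 for H3K9Ac. Over all genes 2.33%, 1.44% and 0.689% were lost, and 0.337%, 0.299% and 0.909% were gained, for the targets in that order. A better promoter rank without overlap was found at 1 of 1 gene for Pol II (MMP14, background 15.4%), at 1 of 2 for H3K9Ac (MMP15, background 16.4%) and at 0 of 3 for H3K4me3 (background 11.5%). A worse rank without overlap was found for H3K4me3 at 2 of 3 genes (MMP15 and MMP16, background 28.2%), and at 0 of 1 for Pol II (background 24.2%) and 0 of 2 for H3K9Ac (background 22.1%). With 1 to 3 genes to compare, nothing is read from these counts against the backgrounds.

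The number of summits in a gene and 50 kb on each side gives a wider view. For H3K9Ac, MMP14 had 14 and 15 summits in parental cells and 10 and 9 in SAP30-KO1 cells. MMP2 had 5 and 6 against 3 and 3, MMP16 had 5 and 3 against 2 and 2, and MMP7 had 2 and 1 against 0 and 0. These 4 of 6 genes with any H3K9Ac summit had fewer in SAP30-KO1 without overlap (background 14.8%) and 0 of 6 had more (background 6.59%). MMP15, with 9 and 6 against 7 and 7, and MMP9, with 2 and 4 against 2 and 2, overlapped.

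For Pol II, MMP14 had 8 and 9 summits in parental cells and 13 and 12 in SAP30-KO1 cells. It was the 1 of 5 genes with more (background 16.6%), and 0 of 5 had fewer (background 9.88%). Several of these summits fell in the same region, also at neighbouring genes. With summits of all targets joined, the MRPL52 promoter region held 4 and 1 Pol II summits in SAP30-KO1, against 1 and 1 in parental cells. The LRP10 promoter region held 2 and 5 against 2 and 1, and the MMP14 promoter region 3 and 3 against 2 and 2. A region in SLC7A7 held 0 and 0 against 1 and 2. For H3K4me3, MMP14 had 6 and 8 summits in parental cells and 6 and 6 in SAP30-KO1 cells. None of 6 genes had fewer H3K4me3 summits without overlap (background 9.41%) or more (background 4.53%).

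**Figure D5:**
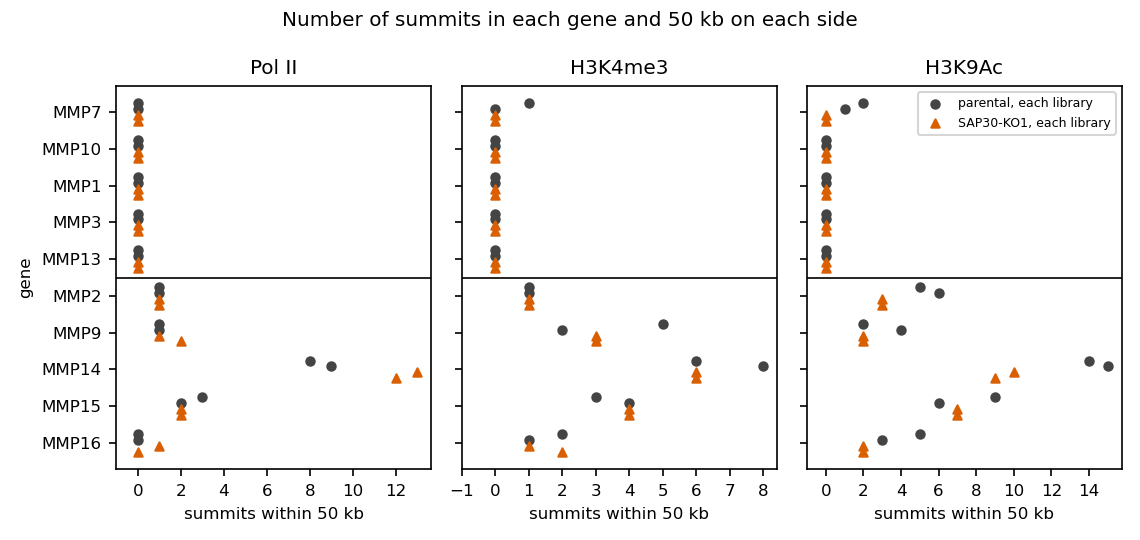
Number of summits in each gene and 50 kb on each side (horizontal axis) for 10 genes (rows) and 3 targets (panels), 1 point per library, parental as circles and SAP30-KO1 as triangles. MMP14 had more Pol II summits (13 and 12 against 8 and 9) and fewer H3K9Ac summits (10 and 9 against 14 and 15) in SAP30-KO1, and 4 of the 5 cluster genes above the line had none. Summits are counted singly, also where several fall in the same region.

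The cluster was compared with the other 5 genes over joined 50 kb windows, so that shared flanks counted once. In the 2 windows of the cluster, of 110 and 285 kb, H3K9Ac had 2 and 1 summits in parental cells and 0 and 0 in SAP30-KO1 cells, a difference of -1.50 (exact permutation test, p = 0.333, n = 2). Pol II had 0 in all 4 libraries, and H3K4me3 had 1 and 0 in parental cells and 0 and 0 in SAP30-KO1 cells (exact permutation test, p = 1.00, n = 2). In the windows of the other 5 genes H3K9Ac had 35 and 34 summits in parental cells and 24 and 23 in SAP30-KO1 cells, a difference of -11.0 (34.5 ± 0.707 to 23.5 ± 0.707, SD, n = 2; exact permutation test, p = 0.333). Pol II had 13 and 13 against 18 and 17, a difference of 4.5 (exact permutation test, p = 0.333, n = 2), and H3K4me3 had 17 and 16 against 15 and 16 (exact permutation test, p = 0.667, n = 2). The H3K9Ac lists were shorter in SAP30-KO1, with 50807 and 50862 summits against 53651 and 54622, and with lists of equal length the difference over the other 5 genes was -9.00 for H3K9Ac and 1 for Pol II. With the better-ranked 50% of each list it was -4.00 for H3K9Ac and 1.5 for Pol II, and counted as merged regions it was -6.50 for H3K9Ac and turned to -1 for Pol II.

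Regions near the members, made by joining summits of a target within 1000 bp, were counted as well. H3K9Ac regions found in both parental libraries were absent from both SAP30-KO1 libraries at 5 of 20 outside the cluster and at 1 of 1 in it (background 5.18%). On the long arms of chromosomes 8, 11, 14 and 16 the shares lost were 4.77%, 9.18%, 5.18% and 7.34%. Of the 5, the region in an intron of MRPL52 had SAP30-KO1 summits 1303 and 1250 bp away. The region downstream of MMP14 had them 2157 and 2216 bp away, so both losses rest on the joining distance. The others had parental ranks from 59.0% to 98.7%. For Pol II 1 of 10 was lost, in an intron of SLC7A7 11.6 kb upstream of MMP14 (background 8.61%), and for H3K4me3 at 0 of 13 (background 6.22%). No region was gained near a member, with backgrounds of 0.889% (Pol II), 1.26% (H3K4me3) and 3.79% (H3K9Ac). Among regions in all 4 libraries, Pol II had 3 of 9 of better rank (background 15.6%) and 0 of worse (background 23.9%). H3K4me3 had 2 of 12 better (background 9.21%) and 5 worse (background 35.2%), and H3K9Ac had 3 of 14 better (background 15.1%) and 5 worse (background 24.5%). The 3 better Pol II regions were all near MMP14: its promoter, its intron and REM2, a neighbouring gene 50.5 kb away whose ranks of 39.0% and 35.7% became 18.7% and 27.2%. The neighbouring promoters found in most lists, LRP10 in 18 and MRPL52 in 17, had better H3K4me3 ranks without overlap. H3K9Ac at LRP10 had worse ranks without overlap, 0.709% and 0.281% in parental cells and 0.958% and 1.18% in SAP30-KO1 cells, and at MRPL52 its ranks overlapped. At LRP10 H3K4me3 ranked 12.8% and 10.2% in parental cells and 3.58% and 2.15% in SAP30-KO1 cells, a change of -8.63, and at MRPL52 9.19% and 10.1% against 1.59% and 4.34%, a change of -6.70.

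The rest of the pathway was read from lists of other MMP genes, inhibitors and activators. Of 13 other MMP genes, 5 (MMP11, MMP19, MMP24, MMP25 and MMP28) had SAP30 and H3K4me3 at the promoter in both replicates of each line profiled, and MMP11 alone of these had Pol II in all 4 libraries. The remaining 8 had no promoter summit of any target, a state shared by 32.2% of all protein-coding genes. H3K4me3 ranked worse without overlap in SAP30-KO1 at 4 of the 5 (all but MMP19), against the same background of 28.2%. At MMP25, another membrane-type enzyme, it ranked 60% and 61.6% in parental cells and 69.2% and 69.0% in SAP30-KO1 cells. H3K9Ac ranked worse without overlap at 2 of 3 (MMP11 and MMP25, background 22.1%), and 1 of 4 was lost (background 0.689%), namely MMP28, where the parental ranks were 71.9% and 85.5%.

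All 5 inhibitors (TIMP1, TIMP2, TIMP3, TIMP4 and the membrane-anchored RECK) had promoter summits of SAP30, of Pol II and of both histone marks in every library profiled. The same held for all 5 activators or inducers reported: the urokinase PLAU, its receptor PLAUR, the tissue plasminogen activator PLAT, the proprotein convertase FURIN and the inducer BSG. In parental cells these 4 targets stood together in both replicates at 11084 of all 20090 genes (55.2%), so nothing particular to these lists is read from it. H3K4me3 ranked worse without overlap at 3 of the 5 inhibitors (TIMP1, TIMP2 and TIMP4, background 28.2%) and better at 1 of 5 (background 11.5%), RECK, where ranks of 26.8% and 9.87% stood against 7.47% and 3.80%. It ranked worse without overlap at 5 of these 5 activators or inducers, against the same 28.2%. Over both lists Pol II ranked worse without overlap at TIMP3, TIMP4, PLAUR and BSG (4 of 10, background 24.2%) and better at PLAT (1 of 10, background 15.4%), with 45.2% and 42.2% in parental cells and 20.2% and 24.8% in SAP30-KO1 cells. H3K9Ac ranked worse at TIMP1, TIMP4 and PLAUR (3 of 10, background 22.1%) and better at TIMP2 and TIMP3 (2 of 10, background 16.4%). The MMP14 inhibitor gene TIMP2 had its Pol II summit among the best of each list, at 3.46% and 1.33% in parental cells and 1.74% and 3.13% in SAP30-KO1 cells, and these overlapped.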

How the data were processed

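Per the labels, ChIP-seq was done in MDA-MB-231 cells, and 18 of the libraries have a peak list, 2 in each of 9 groups taken from the labels. The other 12 samples (inputs and total H3) were not analysed here. The deposited values are positions of 1-bp summits that the authors called in each library by itself, with a score that is the −log10 of the q-value (lowest 1.30). The submitters' processing notes name FastQC 0.11.2, Bowtie2 2.3.3.1, Picard and MACS2 2.1.0 with hg19. The control and options of the peak calling are not given in the sources used here. Names of H3K4me3 and Pol II peaks carry a tag with the number 20, whose meaning is not given. Peaks below the threshold and summit heights comparable between libraries are absent, and depth is unknown, so scores served only to rank summits within a list.

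Start sites were those of basic transcripts in GENCODE release 44 on GRCh37. Windows were 1000 bp around a start and 50 kb beside a gene. Summits of a target within 1000 bp were joined to regions. Two-sided exact permutation tests compared 2 libraries with 2 (smallest p 0.333). Every call was made over all protein-coding genes or regions, and its share is the background. All 10 members were named, other genes came from lists (1 gene of the list of activators is not reported here), and at most 3 regions within 50 kb of each were named by the number of lists and then rank, beside others picked out after their values were seen. The members and lists were chosen with earlier results of these data known. Calculations used Python 3.11.15 with pandas 2.3.3. Recovery of removed promoter summits and of lowered scores was tested on simulated lists. The simulated falls were large against the simulated noise, so this does not show how well small changes in rank are called. Alternatives were other windows, start sites, list lengths, rank bases, flanks, joining, omission of each replicate and a replicate block. The columns of peak names were not used.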

Additional observations from a re-analysis of the deposited data

How the results depend on the processing

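Of 250 recomputed values, 233 kept their direction or, for counts and shares of members, stayed within 1.5 times. Differences in summits that kept their direction still moved by more than that: over the other 5 genes Pol II was 1 with equal list lengths, 1.5 with the better-ranked 50% and 7 with 100 kb flanks, H3K9Ac was -4.00 with the better-ranked 50% and -6.50 as merged regions, H3K4me3 was -2 with 100 kb flanks and -0.5 with equal list lengths, and H3K9Ac of the cluster was -0.5 with 25 kb and -3.50 with 100 kb flanks. Ranked among genes alone, the changes of MMP14 were -13.4 (Pol II), 5.18 (H3K4me3) and -44.0 (H3K9Ac). With the better-ranked 50% of each list the share of pairs with a promoter summit was 11.1%, H3K9Ac gains were 1, and the H3K4me3 and H3K9Ac differences of the cluster were 0. The H3K4me3 difference of the cluster was also 0 with 25 kb flanks and with equal list lengths, and the Pol II difference of the cluster was -1 with 100 kb flanks. As merged regions the Pol II difference of the other 5 genes reversed to -1. Several Pol II summits fell in the same region in places, as at MRPL52 (4 in SAP30-KO1 replicate 1) and LRP10 (5 in SAP30-KO1 replicate 2). Of 10 Pol II regions found in both parental libraries, 1 was lost. The part of either in the reversal was not tested. Leaving out each replicate, H3K9Ac losses ranged from 0 to 1, H3K9Ac gains from 0 to 1 (the 1 in each case without parental replicate 1), H3K9Ac members of better rank from 1 to 2 (2 without parental or SAP30-KO1 replicate 1), of worse rank from 0 to 1 (1 without parental replicate 2), and the H3K4me3 difference of the cluster from -1 to 0 (0 without parental replicate 1). With each replicate left out, the H3K4me3 change of MMP14 ran from -2.15 (reversed, without SAP30-KO1 replicate 2) to 7.81, and its H3K9Ac change from -31.7 to 0.0567 (reversed, without parental replicate 2). The H3K9Ac change of the MMP2 region stayed between 45 and 54.5 under alternatives chosen after seeing the data (other joining distances, ranks within the chromosome arm, each replicate left out). Agreement with a library left out was partly fixed in advance. A call of loss, gain or rank without overlap could then be added but not removed. A rank change without overlap, such as that of the MMP2 region, could not change its direction. Such values are among the 233 counted as kept.

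Replicate numbers are shared by the groups, but nothing in the labels says that a number marks a common batch, and deviations of same-numbered libraries correlated across genes at 0.00753 (Pol II), -0.0189 (H3K4me3) and -0.0136 (H3K9Ac). With the replicate block, all 12 results kept their call: 1 better for Pol II, 2 worse for H3K4me3 and 1 better for H3K9Ac. Differences for the other 5 genes were -11.0 (H3K9Ac) and 4.5 (Pol II), with p = 0.5 by exact sign flips, the smallest that 2 pairs allow. This agreement was largely fixed in advance. A mean of paired differences equals the difference of the means, so no difference in summits could change. Ranks without overlap also differ the same way in both pairs, so a call could be added but not lost. These 12 are among the 233 values counted above as kept.

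With 2 libraries against 2 the smallest p is 0.333, above a threshold of 0.05, for -11.0 and 4.5 as for every other difference. Depth is unknown, and signal below the calling threshold was not seen, so the absence of summits at MMP7, MMP10, MMP1, MMP3, MMP13 and MMP9 was not shown to be an absence of binding.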
